A study of Mus musculus with 6 samples.

Results

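Neutrophils carry their antimicrobial proteins ready-made in granules, and the 10 genes described here encode proteins of those granules, of the neutrophil cytosol, or a secreted factor of mature neutrophils. They were taken as a listed set from the 19848 genes of the RNA table: Elane, Prtn3, Mpo, Camp, Ngp, Ltf, Lcn2, S100a8, S100a9 and Retnlg. All 10 were present in the table, and all are described across the cell types named by the authors, across the 2 loading wells, and separately in cells with at least 2000 and with fewer than 2000 raw RNA molecules (unique molecular identifiers, UMIs).

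Granules are filled in an order that follows maturation in the bone marrow. Azurophil granules form first, in promyelocytes, and hold the serine proteases neutrophil elastase (Elane) and proteinase 3 (Prtn3) together with myeloperoxidase (Mpo), the enzyme that makes hypochlorous acid. Specific granules form next, in myelocytes and metamyelocytes, and hold the cathelicidin peptide precursor (Camp), neutrophilic granule protein (Ngp), the iron binder lactotransferrin (Ltf) and lipocalin 2 (Lcn2), which captures bacterial siderophores. S100a8 and S100a9 form calprotectin, a zinc- and calcium-binding complex that fills the cytosol of neutrophils and is also made by monocytes. Retnlg, resistin-like gamma, is known as a transcript of mature neutrophils. Because the mRNAs of azurophil and specific granule proteins are made mainly before release from the marrow, their presence in a cell is read in the field as a mark of immaturity, whereas calprotectin mRNA persists.

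The cells were immune cells enriched on a Percoll gradient from whole brains of naive female C57BL/6 mice and profiled by CITE-seq, which counts RNA and antibody tags in the same cell. The 4 groups were young control (12 weeks old, vehicle), young antibiotic (12 weeks old, gut microbiota depleted with antibiotics), aged control (72 weeks old, vehicle) and aged antibiotic (72 weeks old, antibiotics). From 24 brains, 6 per group, 12 pools were made, 3 per group, and each pool carried a hashtag antibody, so the pool is the replicate. The 6 young pools were loaded in 1 well and the 6 aged pools in another, so that age and well cannot be told apart, and hashtags 1 to 3 always marked control and 4 to 6 always antibiotic pools, so that hashtag and arm cannot be told apart either.

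The 10 genes are annotated as protein coding in the mouse genome (RefSeq, GRCm38.p6), and 7 of them lie in 3 neighbourhoods. Prtn3 (chr10:79879667-79883174, plus strand) lies 3137 bases before Elane (chr10:79886312-79888216, plus strand). S100a8 (chr3:90669071-90670034, plus strand) and S100a9 (chr3:90692630-90695721, minus strand) are 22595 bases apart. Camp (chr9:109847377-109849456, minus strand), Ngp (chr9:110419808-110423012, plus strand) and Ltf (chr9:111019292-111042766, plus strand) share a stretch of chromosome 9, with 570351 bases between Camp and Ngp and 596279 between Ngp and Ltf. Lcn2 (chr2:32384637-32387739, minus strand), Mpo (chr11:87793784-87804412, plus strand) and Retnlg (chr16:48872608-48874498, plus strand) have no other member near them.

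The 250 bases before the start of 6 of these genes are shown because the members split into 2 patterns in the values that follow, the specific granule genes (Camp, Ngp, Ltf) on one side and the azurophil genes (Elane, Prtn3, Mpo) on the other. The sequences are the RefSeq reference of GRCm38.p6, written 5′ to 3′ on the gene's own strand, and capitals mark matches on either strand to 2 letter patterns, TTNNGNAA (the form of C/EBP family sites, N being any base) and GAGGAA (the core bound by PU.1).
Camp, chr9:109849457-109849706, minus strand: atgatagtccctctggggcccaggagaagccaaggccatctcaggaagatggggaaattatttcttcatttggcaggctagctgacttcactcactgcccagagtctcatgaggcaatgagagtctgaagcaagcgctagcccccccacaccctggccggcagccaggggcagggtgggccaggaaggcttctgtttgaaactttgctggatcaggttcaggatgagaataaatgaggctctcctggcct
Ngp, chr9:110419558-110419807, plus strand: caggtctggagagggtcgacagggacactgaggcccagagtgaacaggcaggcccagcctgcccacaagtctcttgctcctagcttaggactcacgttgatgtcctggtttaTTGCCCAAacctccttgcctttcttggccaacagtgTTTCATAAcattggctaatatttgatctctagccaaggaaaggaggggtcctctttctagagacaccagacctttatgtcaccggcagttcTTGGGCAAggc
Ltf, chr9:111019042-111019291, plus strand: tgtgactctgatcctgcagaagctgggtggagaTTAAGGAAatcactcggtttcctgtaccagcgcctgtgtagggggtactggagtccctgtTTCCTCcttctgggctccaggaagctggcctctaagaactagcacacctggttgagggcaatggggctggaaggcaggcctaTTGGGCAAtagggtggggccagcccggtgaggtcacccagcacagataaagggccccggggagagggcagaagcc
Elane, chr10:79886062-79886311, plus strand: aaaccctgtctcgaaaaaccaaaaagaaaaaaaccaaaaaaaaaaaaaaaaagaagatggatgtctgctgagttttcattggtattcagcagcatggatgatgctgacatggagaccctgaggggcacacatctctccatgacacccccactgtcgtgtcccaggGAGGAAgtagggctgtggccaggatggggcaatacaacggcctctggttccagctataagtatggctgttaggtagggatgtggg
Prtn3, chr10:79879417-79879666, plus strand: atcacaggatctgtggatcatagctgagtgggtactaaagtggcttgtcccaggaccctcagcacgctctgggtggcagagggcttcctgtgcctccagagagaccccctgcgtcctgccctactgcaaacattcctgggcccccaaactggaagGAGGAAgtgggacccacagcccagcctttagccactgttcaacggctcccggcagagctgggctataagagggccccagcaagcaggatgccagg
Mpo, chr11:87793534-87793783, plus strand: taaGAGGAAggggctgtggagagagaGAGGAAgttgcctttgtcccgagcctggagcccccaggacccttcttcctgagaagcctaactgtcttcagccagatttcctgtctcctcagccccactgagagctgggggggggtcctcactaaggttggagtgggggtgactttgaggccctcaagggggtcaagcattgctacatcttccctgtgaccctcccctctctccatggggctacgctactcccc

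TTNNGNAA occurred in the window of 6 of the 10 members (S100a8, S100a9, Ngp, Ltf, Lcn2 and Retnlg) and in 36.8% of the same window before 32851 RefSeq gene starts. GAGGAA occurred in 6 of the 10 members (S100a8, Ltf, Lcn2, Elane, Mpo and Prtn3) and in 23.3% of all windows. Both patterns occurred in 3 members and in 8.87% of all windows. The 3 azurophil genes held GAGGAA and no TTNNGNAA match, Ngp held 3 TTNNGNAA matches, and Camp held neither pattern. The last letters of the patterns are compatible, so that 1 stretch can match both. A match is a property of the letters and does not show that a factor binds there.

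The table held 13052 cells in all, with exactly 3263 per group and 760 to 1590 per pool, and how the cells were chosen is not given in the sources used here. The young well held 51400476 raw UMIs (median 6931 per cell) and the aged well 48730859 (median 7041.5), but antibody tags differed in depth, with a median of 1186 to 1420 tags per cell in the young pools and 186 to 361 in the aged pools. Every cell was called a singlet by the authors, and 59 cell barcodes occurred in both wells. RNA values are the corrected counts of SCTransform, called values below, which adjust each gene for the depth of the cell. They come from reads near the 3′ end of transcripts and carry no length term. A higher value of one gene than of another is a difference in corrected counts, which need not be a difference in tagged molecules.

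The authors' Ly6C+Ly6G+ cells were the main holders of 7 of the 10 genes. This type comprised 352 cells, 241 in the young well and 111 in the aged well, or 3.69% and 1.70% of the cells of each well. Its label matched its markers. The median was 253 Ly6G antibody tags per cell in the young well and 41 in the aged well, against 3 and 0 in microglia, and RNA of the neutrophil genes Ly6g, Cxcr2, Csf3r, Mmp9 and Mmp8 was above 0 in 76.3% to 96.3% of its young cells and 57.7% to 81.1% of its aged cells. Over these 352 cells S100a9 and S100a8 ranked first and second of all 19848 genes by mean value and made up 14.1% and 10.1% of all corrected counts. Ngp ranked 3, Camp 4, Retnlg 6, Lcn2 7 and Ltf 12. The azurophil genes were far down the same list, with Prtn3 at rank 2816, Elane at 4320 and Mpo at 8544.

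Although few cells belong to this type, they held most of the summed value of the calprotectin and specific granule genes. In the young well Ly6C+Ly6G+ cells held 85.7% of all S100a8, 86.0% of S100a9, 78.7% of Camp, 80.5% of Ngp, 82.4% of Ltf, 84.2% of Lcn2 and 93.5% of Retnlg. In the aged well the shares were 79.6%, 79.0%, 62.1%, 71.7%, 81.4%, 74.3% and 95.2% in the same order. The azurophil genes sat elsewhere, in the cells that the authors call Ly6CHigh, which carry much Ly6C, a surface protein of inflammatory monocytes and of early granulocytes. Ly6CHigh cells were 2.18% of young and 3.78% of aged cells and held 70.2% of Elane, 70.5% of Prtn3 and 49.8% of Mpo in the young well. In the aged well they held 84.3% of Elane, 83.3% of Prtn3 and 75.7% of Mpo, and Ly6C+Ly6G+ cells held 0.724%, 0.477% and 0.0905%.

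For S100a8 the 3 highest types were the same in both wells. In Ly6C+Ly6G+ cells the mean value of S100a8 was 803 in the young and 622 in the aged well, in Ly6CHigh cells 63.3 and 36.6, in BCells 31.0 and 15.2, in Ly6CLow cells 1.13 and 8.32, and in microglia 2.78 and 0.415. For Camp the means in Ly6C+Ly6G+ cells were 172 and 127, and in Ly6CHigh cells 22.4 and 20.9. For Retnlg the step from one type to the next was steeper, from 161 and 104 in Ly6C+Ly6G+ cells to 0.211 and 0.0405 in Ly6CHigh cells. Elane had the reverse order, with 2.93 and 5.19 in Ly6CHigh cells against 0.154 and 0.0991 in Ly6C+Ly6G+ cells, and Mpo likewise, with 0.761 and 3.39 against 0.0249 and 0.00901. These are means over cells with no test, and a few very high cells carry those of the BCells, Ly6CLow cells and microglia, as described further on. The means of Ly6CHigh cells were uneven too. There S100a8 was 0 in 64 of 142 young and 103 of 247 aged cells, and at least 100 in 9 and 14. Over young pools the Ly6CHigh mean of S100a8 ran from 0.286 to 99.9. That of Elane was 8.63 in young antibiotic pool 3 and at most 1.15 in the other young pools.

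**Figure D1:**
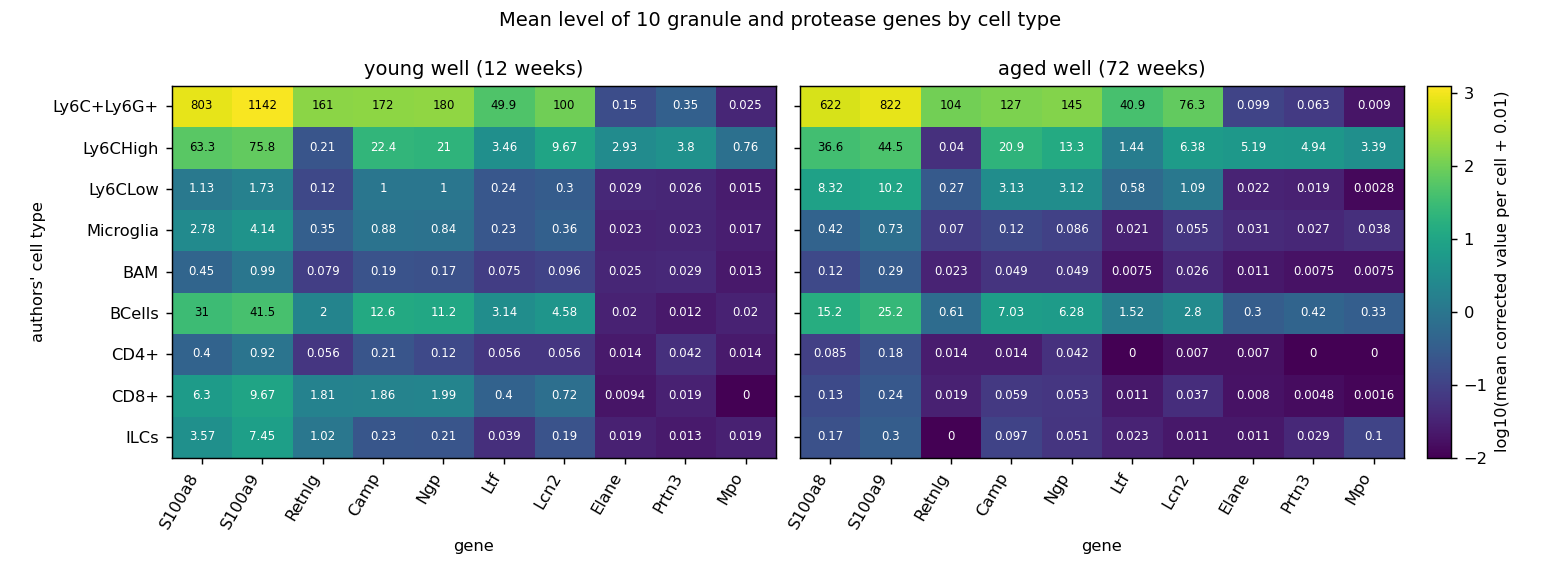
Mean value of each of the 10 genes (columns) in each of the authors' cell types (rows), in the young well (left) and the aged well (right), with colour for log10 of the mean plus 0.01 and the mean printed in each field. S100a8 is highest in Ly6C+Ly6G+ cells (803 and 622), whereas Elane, Mpo and Prtn3 are highest in Ly6CHigh cells.

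Between pools, Ly6C+Ly6G+ cells numbered 112, 15 and 23 in the young control pools, 10, 8 and 73 in the young antibiotic pools, 7, 20 and 23 in the aged control pools and 12, 8 and 41 in the aged antibiotic pools. The mean value of S100a8 per pool was 882, 1003 and 527 in young control, 296, 560.2 and 824 in young antibiotic, 251, 901 and 649 in aged control and 697, 573 and 522 in aged antibiotic pools. The 4 groups overlapped, and the lowest pool was the one with the fewest cells, aged control pool 1. For Camp the pool means were 166, 344 and 118 in young control, 40.5, 141 and 185 in young antibiotic, 75.3, 176 and 104 in aged control and 111, 83.9 and 138 in aged antibiotic pools. For Retnlg they were 201, 69.3 and 76.5 in young control, 116, 71.2 and 161 in young antibiotic, 14.0, 102 and 138 in aged control and 121, 94.6 and 98.7 in aged antibiotic pools. Young control pool 2 was the highest of the 12 for S100a8 and Camp and among the 3 lowest for Retnlg, so the genes did not share 1 order over pools.

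Single cells of the type differed widely. S100a8 ran from 0 to 1793 over the 352 cells with a median of 822, and was above 0 in all 241 young cells and in 99.1% of the aged cells. Camp ran from 0 to 913 with a median of 69.5. Retnlg ran from 0 to 772 with a median of 85. The specific granule genes varied together from cell to cell, with a Spearman correlation of Camp with Ngp of 0.95, with Ltf of 0.91 and with Lcn2 of 0.86. S100a8 and S100a9 had a correlation of 0.96, while Camp and Retnlg had one of -0.17. These correlations are over 352 cells that share libraries and a wide range of depth (S100a8 had a correlation of 0.68 with the raw UMI total), so they are descriptions and no p is given.

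Camp and Retnlg were used to sort the cells into classes, with a chosen level of 10 for each gene. Camp alone reached 10 in 51 cells (14.5%), both genes in 171 (48.6%), Retnlg alone in 111 (31.5%) and neither in 19 (5.4%). Near the level, 8 cells had a Camp value of 5 to 9 and 11 of 10 to 19, and 20 and 23 cells had such values of Retnlg. Another level would move such cells between the classes. The classes are ranges of 2 genes, not cell types, and the values of Camp and Retnlg in them follow from the definition.

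The other genes differed between the classes as follows. Ngp had a median of 156 in Camp-only cells, 254 in cells with both and 0 in Retnlg-only cells, and Ltf had medians of 45, 80 and 0. Lcn2 had medians of 70, 140 and 12, and S100a8 of 612, 1121 and 293. Ngp and Ltf were thus at 0 in the typical Retnlg-only cell. The order of Camp-only cells and cells with both was the reverse in deep cells, and 25 of the 51 Camp-only cells had fewer than 2000 UMIs. In cells of at least 2000 UMIs the Camp-only medians were above those of cells with both genes, at 441.5 against 267 for Ngp, 107 against 85 for Ltf, 161.5 against 141 for Lcn2 and 1221.5 against 1132 for S100a8. Cebpe, the transcription factor of the myelocyte stage, had medians of 4, 2 and 0, and Chil3, a chitinase-like protein of immature granulocytes and monocytes, of 52, 30 and 0. In the other direction, the cytokine genes Il1b and Cxcl2 had medians of 0, 1 and 50 and of 0, 4 and 47. The gelatinase granule gene Mmp9 had medians of 0, 19 and 9, and the chemokine receptor gene Cxcr2, needed for release from the marrow, of 0, 2 and 4. Antibody tags, which are read from another library, gave medians of 74, 185 and 264 for Ly6G and of 43, 13 and 3 for CD117, the stem cell factor receptor of progenitors. The medians of Cebpe, Chil3, Il1b, Cxcl2, Mmp9 and Cxcr2 are given over all depths and both wells, and the part of depth and well in them was not tested. The classes differ in their mix of wells (33 of the 51 Camp-only and 45 of the 171 cells with both were aged), so the order of the 2 tags was read within each well. CD117 tags had medians of 56.5, 16 and 4 in the young and 38, 1 and 0 in the aged well, highest in Camp-only cells of both. Ly6G tags had medians of 87, 216 and 304 in the young well but of 45, 34 and 49 in the aged well, so the order over the classes was seen in the young well alone. No test was made over these cells.

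**Figure D2:**
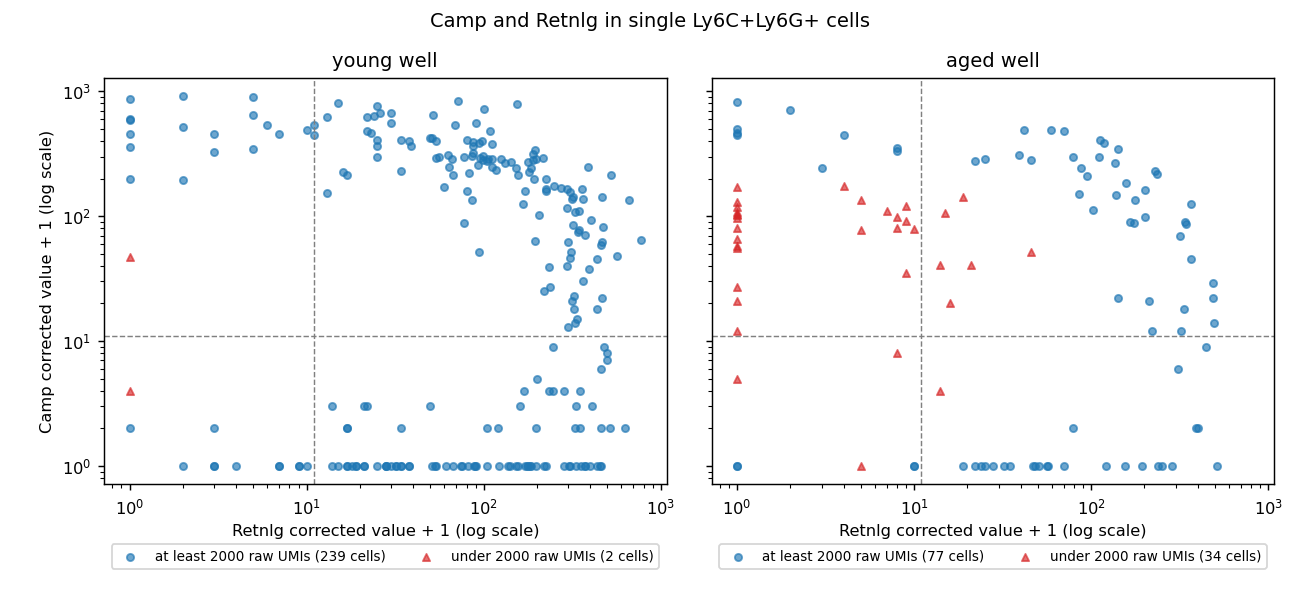
Value of Retnlg (x axis) against value of Camp (y axis) in each Ly6C+Ly6G+ cell of the young well (left, 241 cells) and the aged well (right, 111 cells), both plus 1 on log axes, with circles for cells of at least 2000 raw UMIs, triangles for cells under it and dashed lines at a value of 10. Cells with both genes form the largest class (171 cells), and the shallow cells of the aged well lie mostly at high Camp and low Retnlg (24 of 34).

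Depth moved with these classes. Of the 239 young cells with at least 2000 UMIs, 17 were Camp-only, 126 had both, 85 were Retnlg-only and 11 had neither. Of the 77 aged cells of that depth the numbers were 9, 39, 25 and 4, and of the 34 aged cells under 2000 UMIs they were 24, 6, 1 and 3. Aged cells under 2000 UMIs had a median of 523.5 raw UMIs, and their corrected total was a median of 8.59 times the raw total, against 0.799 times in aged cells of at least 2000 UMIs, so that 1 molecule weighs more in a shallow cell and a value of 10 there rests on few molecules. Of the Camp-only cells, 26 had at least 2000 UMIs, and those were not shallow at all, with a median of 25016.5 raw UMIs, a median S100a8 of 1221.5 and a median of 3.5 for the proliferation gene Mki67.

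Within the aged well S100a8 had a median of 966 in cells of at least 2000 UMIs and 115 in cells under it, and Retnlg 101 and 4. Camp went the other way, with medians of 69 and 78.5, and was above 0 in 68.8% and 97.1% of the cells. Ngp had medians of 136 and 74 and Ltf of 24 and 19. Aged antibiotic pool 3, the only pool with at least 5 cells on each side of the split (19 and 22), gave mean values of 986 and 121 for S100a8, 191 and 91.3 for Camp and 203 and 8.27 for Retnlg, so no test over pools was possible for this split. The part of depth in the classes was not tested further, since raw molecules per gene are not in the tables used here.

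Across cell types, the genes whose levels were most like those of S100a8, Camp and Elane were sought over 18 points, each type and well with at least 10 cells. For S100a8 they were Wfdc21 (Pearson r of 0.98 on the log2 scale), Gadd45a (0.94), Cebpe (0.93), Chil3 (0.93) and Hp, the haemoglobin binder haptoglobin (0.92). For Camp they were Wfdc21 (0.98), Chil3 (0.96), Ifitm6 (0.95), Hp (0.94) and Cebpe (0.94). For Elane they were Spink2 (0.94), Vcan (0.93), the progenitor gene Ms4a3 (0.92) and the mitotic genes Aurka (0.91) and Kif20a (0.91), of which Spink2 never had a mean above 0.0486. Among the members, r was 0.99 for Elane with Prtn3 and 0.94 with Mpo, but 0.54 with S100a8 and 0.05 with Retnlg. The points share libraries and depth, and r is given without a p.

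Azurophil genes were carried by a small set of Ly6CHigh cells at high values. As a check of that label, the monocyte genes Ccr2 and Ly6c2 were above 0 in 88.7% and 85.2% of young but only 45.3% and 58.7% of aged Ly6CHigh cells, and the microglial gene P2ry12 in 16.9% and 59.5%. A value of at least 10 in any of Elane, Mpo or Prtn3 (azurophil-high below) was reached by 12 of 142 young Ly6CHigh cells and 52 of 247 aged ones. All 12 young cells had at least 2000 UMIs, whereas of the 52 aged cells 46 had fewer. By depth, azurophil-high cells were 34.1% of the 135 shallow and 5.36% of the 112 deep aged Ly6CHigh cells, and 16 aged cells had their highest azurophil value between 5 and 9, against 21 between 10 and 19. The shallow aged Ly6CHigh cells had a median of 532 raw UMIs and a corrected total of 8.72 times the raw total. Among young pools the azurophil-high cells were in control pools 1 (8 cells) and 3 (1 cell) and antibiotic pool 3 (3 cells). Aged azurophil-high cells were in all 6 pools, with 7, 5 and 4 in the control and 1, 6 and 29 in the antibiotic pools.

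In the aged well the proteases and myeloperoxidase were mostly high in the same cells. Of 38 aged Ly6CHigh cells with Elane of at least 10, 30 had such a value of Prtn3 and 27 of Mpo, and of 30 Mpo-high cells 27 were Elane-high. Ctsg, which encodes cathepsin G, the other azurophil protease on the list of further neutrophil genes, reached 10 in 18 of the 38. S100a8 reached 10 in 12 of them and Camp in 6, so most aged Elane-high cells were under 10 for S100a8 and for Camp. S100a8 was above 0 in 24 of the 38. The young well held fewer such cells and differed. Of its 5 Elane-high cells 4 reached 10 for S100a8 and 2 for Camp. Of its 12 Prtn3-high cells 5 were Elane-high and 2 Mpo-high, and S100a8 was above 0 in 11.

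In the 46 shallow aged azurophil-high cells the mean values were 26.3 for Elane, 20.1 for Prtn3, 17.8 for Mpo and 9.57 for Ctsg. The later genes were low there, with means of 10.1 for S100a8, 9.07 for Camp, 0.717 for Lcn2 and 0 for Ltf and Retnlg. Of the monocyte genes, Ccr2 and Fn1 were near 0, with means of 0.0652 and 0.152, and Plac8, which early granulocytes also express, had a mean of 9.07. The other genes of the monocyte list (Ly6c2, Chil3 and Vcan) are not given for these cells, so whether the list as a whole was low in them is not shown. Medians of Elane, Prtn3 and Mpo were 20, 18 and 17, so these means were not made by a few cells. The 12 young azurophil-high cells had means of 33.25 for Elane, 35.25 for Prtn3 and 8.67 for Mpo, carried by few cells, with medians of 5.5, 20 and 0. They also held S100a8 (mean 97.8, median 3), Ccr2 (mean 5.58), Fn1 (14.3) and Mki67 (7.17), and their mean raw total was 42184 UMIs. The 6 aged azurophil-high cells of at least 2000 UMIs had means of 15.2 for Prtn3, 5.83 for Elane and 0 for Mpo, with 7.67 for Ccr2, 22.8 for Fn1 and 4.17 for Mki67, and a mean raw total of 35721 UMIs. At this depth the cells of both wells thus held Ccr2, Fn1 and Mki67, and Ccr2 and Fn1 were near 0 in the shallow aged cells. Shallow aged Ly6CHigh cells had a median of 532 raw UMIs, and genes of low level can be missed at such depth. Whether the Ly6CHigh label covers different kinds of cell was not tested.

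CD117 antibody tags gave a readout independent of RNA. Mean CD117 tags were 247 in the shallow aged azurophil-high cells (median 246) and 51.8 in the young ones (median 3), against 20.01 in the 172 aged and 3.66 in the 112 young Ly6CHigh cells that were low in both azurophil genes and S100a8. Per pool, azurophil-high against other Ly6CHigh cells had 3.00 against 6.93 tags in young control pool 1, 198 against 7.37 in young antibiotic pool 3, 242 against 19.1 in aged control pool 1, 178 against 3.05 in aged control pool 2, 83.8 against 1.85 in aged control pool 3, 151 against 3.25 in aged antibiotic pool 2 and 261 against 45.2 in aged antibiotic pool 3. Azurophil-high cells had more tags in 6 of these 7 pools, and young control pool 1 was the exception. Over the 7 pools with at least 3 cells of each kind the means were 160 and 12.4 tags (exact sign-flip permutation test over pools, two-sided, p = 0.03125, smallest possible 0.015625). As a percent of all antibody tags the means were 4.13% and 0.443%, with the same exact p of 0.03125. This test was chosen after the values were seen, and leaving out any 1 of the 6 pools in which the azurophil-high cells were higher gave an exact p of 0.0625. Among cells of at least 2000 UMIs only 2 pools qualified, and the 6 deep aged azurophil-high cells had a mean of 3.83 CD117 tags, so the high tags of the aged well belonged to its shallow cells.

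**Figure D3:**
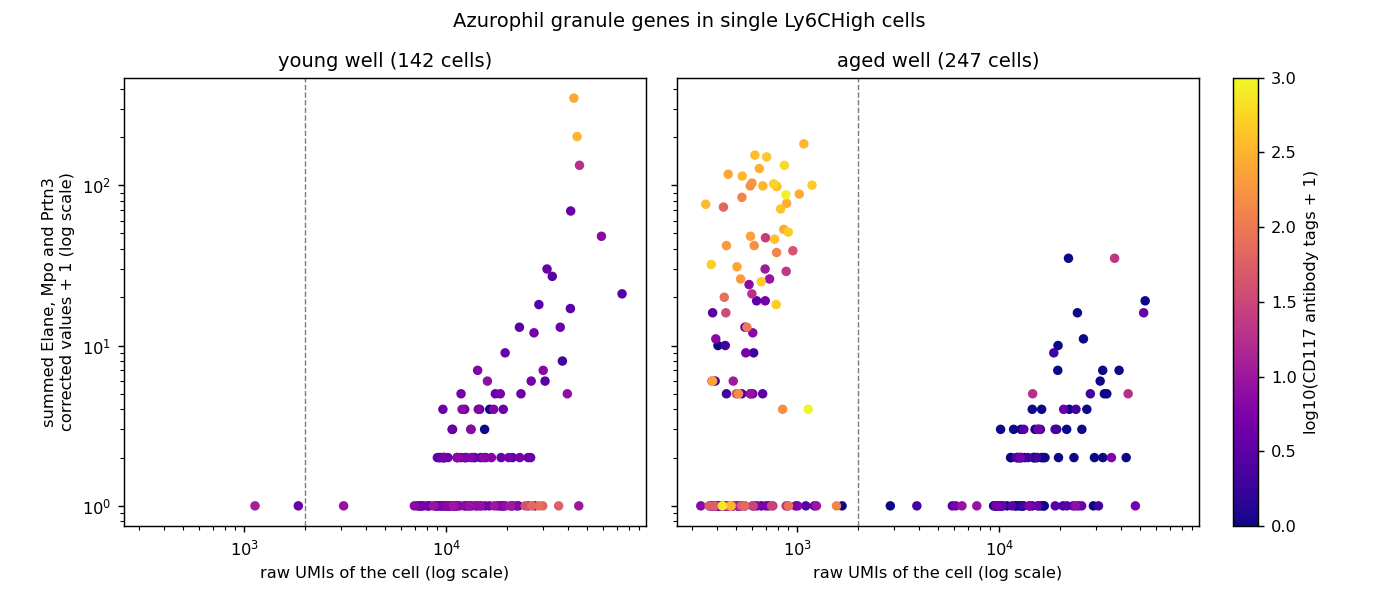
Raw UMIs (x axis, log scale) against the summed values of Elane, Mpo and Prtn3 plus 1 (y axis, log scale) in each Ly6CHigh cell of the young well (left, 142 cells) and the aged well (right, 247 cells), with colour for CD117 antibody tags (log10 of tags plus 1) and a dashed line at 2000 UMIs. Most aged azurophil-high cells lie under 2000 UMIs (46 of 52), and those cells have the high CD117 tags (median 246).

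Outside Ly6CHigh cells high azurophil values were rare. They occurred in 2 young Ly6C+Ly6G+ cells, 5 aged BCells, 5 aged microglia and 1 aged ILC (innate lymphoid cell), and all 10 of the aged BCells and microglia had fewer than 2000 UMIs. None occurred among 634 Ly6CLow cells, 506 BAM (border-associated macrophages), 214 CD4+ or 728 CD8+ cells, which allows shares of up to 0.473%, 0.593%, 1.40% and 0.412%.

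S100a8 at a value of at least 10 was found in cells of several other types, and their surface tags and marker genes showed how far such cells fit their labels. There were 22 such cells among young and 37 among aged Ly6CHigh cells, 10 and 15 among BCells, 21 and 5 among microglia, 1 and 3 among Ly6CLow cells, 2 and 0 among ILCs, and 1 and 0 among CD8+ cells. None was found among 506 BAM or 214 CD4+ cells. Of the 21 young microglia 15 belonged to antibiotic pool 3, one of the 2 young pools with the most Ly6C+Ly6G+ cells (73). The other, young control pool 1, had 112 Ly6C+Ly6G+ cells but only 1 high cell among 923 microglia, and young antibiotic pool 2 had 8 and 3. Of the 15 aged BCells 13 had fewer than 2000 UMIs.

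The other genes of these cells were read by type. In the 21 young microglia S100a8 had a median of 336, the summed value of 5 microglial markers (P2ry12, Tmem119, Sall1, Siglech and Gpr34) had a median of 6 against 36.5 in microglia with S100a8 at 0, and the summed value of 5 neutrophil markers (Ly6g, Cxcr2, Csf3r, Mmp9 and Mmp8) one of 29 against 1. In the 5 aged microglia the medians were 6 against 33 and 6 against 1. In the 10 young BCells the summed B cell markers (Cd79a, Cd79b, Ms4a1 and Ighm) had a median of 26 against 39.5, the neutrophil markers one of 24.5 against 0, CD11b tags one of 3144 against 43, and raw UMIs one of 21923.5 against 4571.5. In the 15 aged BCells the B cell markers had a median of 1 against 41.5, the neutrophil markers one of 3 against 0 and CD11b tags one of 3148 against 27.5. So the high microglia and BCells held more neutrophil marker values and less of their own label, by a small step in the neutrophil markers of the aged BCells. Whether such cells are doublets or cells placed in the wrong type was not tested.

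The high Ly6CHigh cells were read in the same way. Their summed monocyte markers (Ly6c2, Ccr2, Fn1, Chil3, Plac8 and Vcan) had a median of 177 against 81.5 in young Ly6CHigh cells with S100a8 at 0 and of 47 against 48 in aged ones, and the neutrophil markers medians of 3 against 1 and 1 against 0. The monocyte sum includes Chil3 and Plac8, which granulocytes also express, so it cannot tell monocytes from granulocytes. The aged cells compared also differed in depth, with median raw UMIs of 705 and 10150. Camp or Retnlg also reached 10 in 7 of the 22 young and 19 of the 37 aged cells, compared with 19 of 21 and 4 of 5 microglia and 9 of 10 and 14 of 15 BCells.

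Ly6G antibody tags, the surface marker of neutrophils, were compared between cells with S100a8 of at least 10 and cells with S100a8 at 0, both outside the Ly6C+Ly6G+ type, within each pool that had at least 3 such high cells. In the young well the high cells had a mean of 126 tags in control pool 1, 9.67 in control pool 2, 74.5 in antibiotic pool 2 and 171 in antibiotic pool 3, against 3.39 to 3.59 in the cells at 0. In the aged well the 6 pools had 100.2, 1.60 and 9.50 (control) and 7.86, 2.83 and 40.2 (antibiotic) against 0.527 to 0.725. The high cells had more tags in all 10 pools, with means over pools of 54.3 against 1.77 (exact sign-flip permutation test, two-sided, p = 0.00195, the smallest that 10 pools allow). The cells compared were not matched by type, and types differ in tags, with young medians of 1223 in microglia and 5151 in Ly6CHigh cells. As a percent of all tags the high cells were above in 9 of 10 pools (exact p = 0.00977). In cells of at least 2000 UMIs they were above in 8 of 9 pools (exact p = 0.0117). The young well alone gave 95.2 against 3.50 in 4 pools (exact p = 0.125, the smallest possible) and the aged well 27.0 against 0.609 in 6 pools (exact p = 0.03125, the smallest possible). Among Ly6CHigh cells alone the median was 6.5 against 5 tags in the young and 3 against 1 in the aged well. By pool, this median was lower in the high cells of young control pool 3 (3 against 4), aged control pool 2 (1 against 2) and aged antibiotic pool 2 (1 against 1.5). It was equal in aged antibiotic pool 1 (1 against 1) and higher in the other pools that had high Ly6CHigh cells. For the aged well the call was lost in the share of all antibody tags (0.451 percentage points, exact p = 0.09375), in cells of at least 2000 UMIs (2.93 tags, exact p = 0.1875, 5 pools) and without the Ly6CHigh cells (60.8 tags, exact p = 0.0625, the smallest 5 pools allow).

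**Figure D4:**
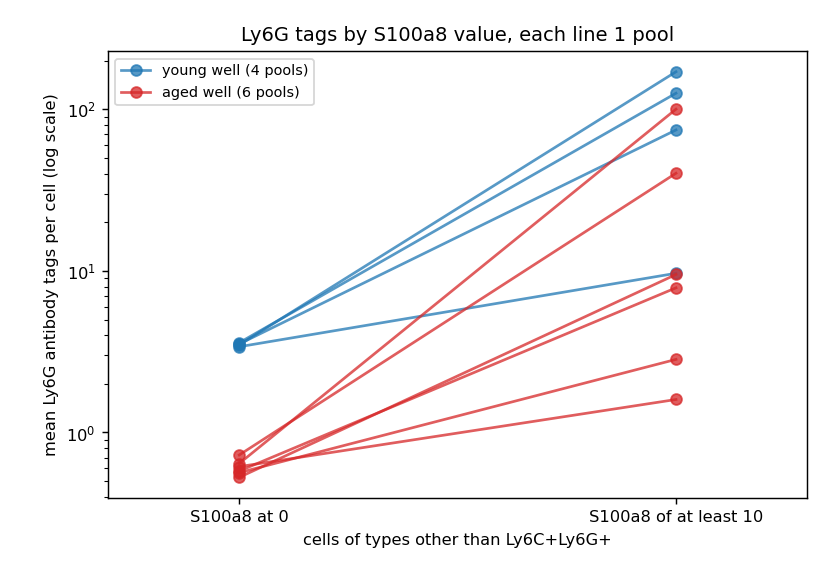
Mean Ly6G antibody tags per cell (log10 axis) of cells outside the Ly6C+Ly6G+ type, with S100a8 at 0 and with S100a8 of at least 10, in each of the 10 pools, joined by lines. The line of each pool rises, and at S100a8 of 0 the aged pools lie at 0.527 to 0.725 tags and the young pools at 3.39 to 3.59.

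Low values of S100a8 were spread thinly over most types, and in 7 of them the share of cells above 0 was larger in the young well. Over all cells of a type, the few high ones included, S100a8 was above 0 in 39.1% of young microglia (Wilson 95% interval 37.8% to 40.5%, which covers counting error only) and 14.1% of aged microglia (13.1% to 15.1%). Without the cells at 10 or more these shares were 38.9% and 14.0%. In CD8+ cells, T cells that do not make calprotectin, it was above 0 in 42.5% (33.5% to 52.0%) of the young and 11.6% (9.29% to 14.3%) of the aged cells, at median depths of 8287 and 6927.5 UMIs against 6809 and 7118 in microglia. In BAM the shares were 29.2% and 11.3%, in CD4+ cells 30.6% and 7.75%, in ILCs 39.4% and 13.1%, in Ly6CLow cells 28.1% and 11.9%, and in BCells 35.2% and 24.3%. Ly6CHigh cells went the other way, with 54.9% and 58.3%, and with 46.7% and 51.0% when cells at 10 or more were left out. Microglia lay below CD8+ cells and above CD4+ cells in the young well and above both in the aged well. The interval of CD8+ cells, which is over single cells and not pools, held the value of microglia in both wells. By pool, the young shares were 33.3% to 53.3% in CD8+ cells and 36.0% to 41.6% in microglia. The aged shares were 8.93% to 15.1% and 13.0% to 15.4%. CD8+ cells lay below microglia in each aged pool except control pool 2. The source of the low values was not tested. The whole table held 225839 corrected counts of S100a8 in the young and 86745 in the aged well, most of them in Ly6C+Ly6G+ cells.

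The proportions of the genes at low values were set beside those in Ly6C+Ly6G+ cells. In microglia of at least 2000 UMIs with all 10 genes under 10, the sum of Camp was 23.0% of that of S100a9 in the young and 26.3% in the aged well, against 15.1% and 15.4% in Ly6C+Ly6G+ cells. S100a8 was 54.0% and 60.04% against 70.4% and 75.6%, and Retnlg 9.58% and 8.95% against 14.1% and 12.7%. The azurophil genes were further apart. Elane was 2.31% and 4.37% in microglia against 0.0134% and 0.0121% in Ly6C+Ly6G+ cells, Prtn3 2.22% and 4.37% against 0.0305% and 0.00767%, and Mpo 1.44% and 2.91% against 0.00218% and 0.0011%. So the ratios of all 3 to S100a9 in microglia were not those of Ly6C+Ly6G+ cells. This was not particular to microglia. In the same kind of cells Elane was 2.79% and 2.04% of S100a9 in BAM, 4.10% and 6.52% in Ly6CLow cells and 2.02% and 1.82% in BCells. It was 1.54% and 4.35% in CD4+ cells, 1.15% and 3.45% in CD8+ cells and 1.92% and 4% in ILCs. These ratios rest on S100a9 sums of 23 to 248 corrected counts, and Prtn3 or Mpo was 0 in some of these types. Ly6CHigh cells had other proportions at low values too. There Prtn3 was 125% of S100a9 in the young and 910% in the aged well, and Lcn2 84.7% and 950%, from 109 and 92 cells and an S100a9 sum of only 72 and 10 corrected counts.

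The next question was whether age or antibiotics changed these genes within a type. Mean values per pool were compared for microglia, Ly6CLow and Ly6C+Ly6G+ cells with limma on the log2(mean + 0.05) scale, over all genes with a mean of at least 0.05. Comparisons of age in controls and of antibiotics within an age share the control pools, so their results are given side by side and not set against each other. A difference in a pool mean does not tell a change per cell from a change in the number of carrying cells.

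In microglia 7 of the 10 genes passed the filter and Elane, Mpo and Prtn3 did not. The pool means of S100a8 were 1.89, 1.81 and 0.545 in young control, 0.644, 3.51 and 6.39 in young antibiotic, 0.163, 0.17 and 0.169 in aged control and 0.271, 1.04 and 0.413 in aged antibiotic pools. Young and aged control pools did not overlap, and antibiotic pools spread more widely than control pools at both ages. For age in controls 5 of the 7 genes were lower at 72 weeks by limma (2.66% of 8759 genes were called in either direction, and 0.457% as lower). They were the calprotectin genes S100a8 (log2 change -2.57 ± 0.58 SE, adjusted p = 0.0184) and S100a9 (-2.39), and the specific granule genes Ngp (-2.39), Camp (-2.15) and Ltf (-1.45, adjusted p = 0.04004). Lcn2 (-1.53, limma adjusted p = 0.0554) and Retnlg (-1.50, limma adjusted p = 0.164) were not called.

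The call did not need the high cells. Over microglia in which the gene itself was under 10, the mean of S100a8 per pool was 0.545 to 0.637 in the 6 young and 0.163 to 0.210 in the 6 aged pools. For Camp it was 0.204 to 0.255 and 0.065 to 0.095. The ranges of the wells were far apart and those within a well were narrow. Without any microglia that reached 10 in a member, limma called all 6 genes that passed the filter as lower at 72 weeks in controls (2.81% of 8754 genes called), with S100a8 at -1.54 (adjusted p = 1.26e-10), Ngp at -1.43 (4.75e-09), Camp at -1.23 (2.89e-08), Retnlg at -1.05 (2.22e-05) and Lcn2 at -0.79 (0.000113), while Ltf fell below the filter. Low values of S100a8 also differed between the wells in CD8+ cells and border macrophages, with shares of values from 1 to 9 among cells under 10 of 41.9% against 11.6% and 29.2% against 11.3%, and the 2 ages cannot be told apart from the 2 wells. The count depended on the scale: 0 genes were called with a pseudocount of 0.5 or with no filter on low values, 6 with a pseudocount of 0.01, and 7 with the mean of log2(value + 1) per cell. In cells of at least 2000 UMIs 6 were called (3.01% of all genes). Leaving out single pools gave 0 without young control pool 1, 1 without young control pool 2, aged control pool 2 or aged control pool 3, 2 without aged control pool 1, and 4 to 6 without any other pool (6 without young antibiotic pool 1, at 2.76% of all genes).

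For antibiotics, limma called 0 of the 7 genes in microglia at 12 weeks (0.137% of all genes called, 928 of 8759 with an unadjusted p under 0.05), 0 at 72 weeks (3.23%, 1610 unadjusted), 0 in the mean of both ages (5.4%, 1852 unadjusted) and 0 for the difference between the ages (0.0%, 579 unadjusted). All 7 fold changes were above 0 at both ages. Their median log2 change was 0.71 at 12 weeks and 0.84 at 72 weeks, against -0.02 and -0.01 over all genes tested, and the 7 genes share the few cells that carry them. S100a8 had a log2 change of 1.15 ± 0.41 SE in the mean of both ages (limma adjusted p = 0.106). Without young antibiotic pool 1, 6 of the 7 genes were called as higher with antibiotics in that contrast (3.32% of 8772 genes called), with S100a8 at 1.61 (limma adjusted p = 0.00451). None was called without microglia that reached 10 in a member (5.49% of all genes called) or in microglia of at least 2000 UMIs (8.05%).

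Shares of cells with S100a8, which 1 very high cell cannot move as it moves a mean, were compared between the arms. S100a8 was above 0 in 38.6% ± 2.20 of young control and 40.2% ± 1.27 of young antibiotic microglia (mean ± SD, n = 3 pools, exact permutation test, two-sided, p = 0.6). Aged microglia had shares of 13.2% ± 0.21 in control and 15.1% ± 0.291 in antibiotic pools, without overlap between the arms, at an exact p of 0.1, the smallest that 3 against 3 pools allow. Among aged microglia of 5000 to 10000 UMIs they were 14.6% in both arms (difference 0.0748 percentage points, exact p = 1), so the difference was not seen at matched depth. A value of at least 10 occurred in 0.0908% of young control against 0.610% of young antibiotic microglia and in 0% against 0.241% of aged ones (both exact p = 0.1), and in no aged microglia of 5000 to 10000 UMIs. Leaving out single pools moved the young differences. The 0.519 percentage points at a value of at least 10 became 0.192 without young antibiotic pool 3, and the 1.59 points above 0 became 0.326 without young control pool 3 and 0.866 without young antibiotic pool 1.

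**Figure D5:**
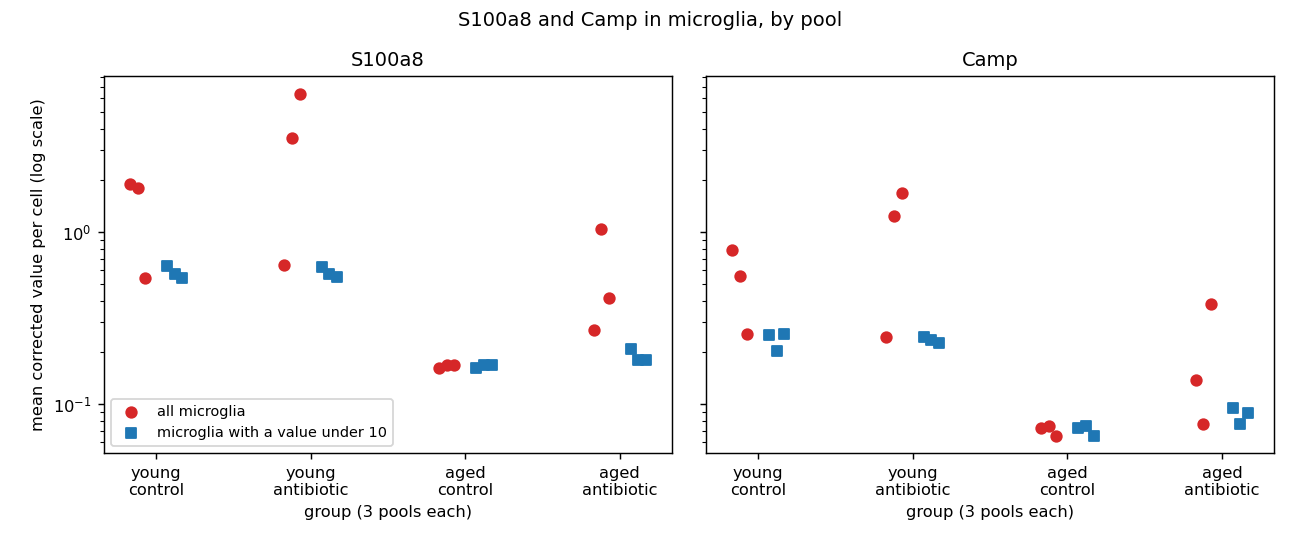
Mean value of S100a8 (left) and Camp (right) per microglial cell on a log axis in each of the 12 pools, by group, over all microglia (circles) and over microglia in which that gene was under 10 (squares). With the high cells left out the pools of a well draw together, at 0.545 to 0.637 for S100a8 in the young and 0.163 to 0.210 in the aged well.

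In Ly6CLow cells, a myeloid type named for little Ly6C, 7 of the 10 genes passed the filter, and limma called none in any of the 5 comparisons. For age in controls, where 0.755% of 8613 genes were called and 1393 had an unadjusted p under 0.05, S100a8 was at 1.32 ± 1.42 SE (log2, limma adjusted p = 0.688). In the 4 comparisons with antibiotics 0.0% of genes were called, and 365 to 535 had an unadjusted p under 0.05. S100a8 was at 1.12 ± 1.42 at 12 weeks and 1.05 ± 1.42 at 72 weeks. The SE exceeded the change in each, and the type held 4 cells with S100a8 of at least 10.

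In Ly6C+Ly6G+ cells, the type that carries the genes, 9 of the 10 passed the filter (not Mpo), and limma called none in any comparison. No gene at all was called there (0.0% of 6825 genes in each comparison, with 153 at an unadjusted p under 0.05 for age in controls, 111 for antibiotics at 12 weeks and 224 at 72 weeks). The pools held 7 to 112 cells of the type. For age in controls the 9 log2 changes were all below 0, with a median of -0.62 against -0.32 over all genes, S100a8 at -0.56 ± 0.42 SE and Camp at -0.76 ± 0.45. The largest were those of the azurophil genes Prtn3 (-1.79 ± 0.85) and Elane (-1.76 ± 0.80), whose means per pool were at most 0.679 and 0.268. These changes are over cells of all depths, and age and well cannot be told apart in them. Over both arms 34 of the 111 aged and 2 of the 241 young cells of the type had fewer than 2000 UMIs. Of these aged cells, 22 were in aged antibiotic pool 3, which is outside the comparison of controls. For antibiotics at 12 weeks 8 of the 9 were below 0 with a median of -0.69, and Retnlg was at 0.11 ± 0.55. At 72 weeks 5 were above and 4 below 0, with a median of 0.10. With pools weighted by their number of cells, limma called Prtn3 as lower with antibiotics at 12 weeks (-2.58, adjusted p = 0.0401, 0.0879% of genes called), and young control pool 1 holds most of the Prtn3 of that comparison, with a mean of 0.679 against 0 and 0.217 in the other control pools.

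The wider neutrophil programme was followed through 36 further genes of granules, receptors and maturation. Of these, 13 were tested in microglia, 23 in Ly6CLow and 33 in Ly6C+Ly6G+ cells, and none was called for antibiotics in any type. For age in controls 2 were higher at 72 weeks in microglia, the lysozyme gene Lyz2 (log2 change 0.64, limma adjusted p = 0.00581) and the NADPH oxidase subunit gene Cybb (0.72, limma adjusted p = 0.0362), opposite in sign to the 5 called members, and both genes are also expressed by macrophages. In Ly6CLow cells 2 were lower, the leukotriene B4 receptor gene Ltb4r1 (-1.21, limma adjusted p = 0.0293) and the calcium-binding S100a6 (-0.73, limma adjusted p = 0.0205). The 4 of the list with the highest mean in Ly6C+Ly6G+ cells were Lyz2 (66.7), S100a6 (38.9), Chil3 (32.5) and Cxcl2 (30.3), and the median log2 change of the 33 tested in that type was -0.64 for age in controls and -0.21 for antibiotics at 12 weeks, with 0 called.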

How the data were processed

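RNA and antibody tags were measured in 13052 cells of 12 pools. Reads were processed with Cell Ranger 3.0.2 and Seurat 3.0.1 against mm10, per the submitters' processing notes. Values of the deposited RNA table are a score made by SCTransform (UMIs corrected for depth), as their total matched the SCT column of the authors' metadata in each of the 13052 cells. Antibody tags and the raw UMI, antibody and hashtag totals were deposited by the authors as counts. Raw molecules per gene were not in the tables used here, so cells could not be thinned to 1 depth. Cell types, pools and singlet calls were the authors' own, and 31 columns of metadata were left out.

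Pools served as replicates. The sources used here do not say whether the pools of a group came from separate cages, so p-values measure the spread between pools. For types with at least 20 cells in every pool (microglia, Ly6CLow) or 5 (Ly6C+Ly6G+), the mean value per pool was taken as log2 after adding 0.05, which understates changes of low genes. Genes with a mean of at least 0.05 were fitted with limma 3.58.1 (trended prior variance, R 4.3.3) over all 12 pools and 5 contrasts, with Benjamini-Hochberg adjustment over all genes tested and a threshold of 0.05. The pseudocount, the filter, the summary per cell, cell depth and single pools were varied. Tag tests used pools with at least 3 cells of each kind, and exact permutation tests were two-sided (Python 3.11.15, scipy 1.17.1). Shares have Wilson intervals, and the limit of a share of 0 is 3 counts. Likeness used types with at least 10 cells in a well. The limma step was tested on simulated data.

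All 10 members are named. Of 36 further neutrophil genes, up to 4 with the highest mean in Ly6C+Ly6G+ cells and any called gene are named. The members, lists and levels were chosen with earlier results of these data known. The CD117 test, its alternatives and the Ly6G test without Ly6CHigh cells were added after the values were seen. The classes by Camp and Retnlg were described without a test. Of the cell type marker lists, 2 genes are not reported here and were left out of the summed markers.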

Additional observations from a re-analysis of the deposited data

How the results depend on the processing

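Over 348 alternatives for counts of called genes, shares and tag differences, 320 kept direction and side of the threshold, or stayed within 1.5 times the count. None was labelled reversed, a label that a count of called genes could not receive. A count of 0 that stayed at 0 was among those kept. Only the comparison of age in control microglia had members called in the main setting, so the number kept says little about calls. Over 2105 alternatives for single members, 1877 kept direction and side of the threshold, 31 lost the call and 16 gained it. In 181 the log2 change switched sign with the gene called in neither setting, and no called gene switched sign. For age in control microglia the 5 genes called by limma became 0 with a pseudocount of 0.5, 0 with no filter (18650 genes tested), and 0 to 6 when single pools were left out. For the mean antibiotic effect in microglia the range was 0 to 6, with 6 without young antibiotic pool 1. Weighting pools by cells gave 1 called gene in Ly6C+Ly6G+ cells at 12 weeks against 0. The cause of these moves was not tested. For Ly6G tags, a level of 5 in place of 10 gave a difference of 39.9 tags in 6 young pools (exact p = 0.03125). In the aged well the difference was 0.451 percentage points of tags (exact p = 0.09375), 2.93 tags in cells of at least 2000 UMIs (exact p = 0.1875), 60.8 tags without Ly6CHigh cells (exact p = 0.0625), and 11.8 to 31.5 tags without single pools, each at an exact p of 0.0625, the smallest that 5 pools allow. The CD117 difference of 147 tags was 135 to 172 without single pools, 93.4 in cells of at least 2000 UMIs (2 pools, exact p = 1) and 189 in cells under 2000 UMIs (5 pools, exact p = 0.0625, the smallest possible). The share of aged microglia with S100a8 of at least 10 differed by 0 percentage points between arms at 5000 to 10000 UMIs, where no such cell was found. No paired analysis was possible because a hashtag number marks different mice in different groups.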
